A study of Homo sapiens with 18 samples.

Results

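The subunits of the mitochondrial respiratory chain and ATP synthase were followed across 18 RNA libraries from the human lines U937 and THP-1. Genes were taken by symbol: the NDUFA, NDUFB, NDUFC, NDUFS and NDUFV genes without the NDUFAF assembly factors, the UQCR, COX4 to COX8 and ATP5 genes, SDHA to SDHD, CYC1, and the protein-coding genes of mitochondrial DNA. This gave 103 of the 18670 genes in the count table, 90 nuclear and 13 mitochondrially encoded. The nuclear genes comprised 37 of complex I, 4 of complex II, 9 of complex III, 18 of complex IV, 18 of complex V and 4 readthrough loci or gene copies. The mitochondrial genome contributed 7 genes of complex I, 1 of complex III, 3 of complex IV and 2 of complex V.

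U937 and THP-1 are established human lines, both labelled as acute myeloid leukemia. Every cell had been transduced with a lentivirus and selected with puromycin at 2 µg/mL, begun 48 h after transduction and lasting 24 h or longer. The 6 groups held 3 libraries each: U937 with empty vector, U937 with shS100A9 (a hairpin against S100A9), THP-1 with empty vector, THP-1 overexpressing S100A9, and the same pair of THP-1 cultures given 1 µM Adavivint for 36 h. Untransduced cells were not analysed here, the labels name no vehicle for the untreated cells, and they do not say whether a line was a clone. The S100A9 protein binds calcium and is abundant in neutrophils and monocytes, and Adavivint (lorecivivint) is described as an inhibitor of CLK2 and DYRK1A, kinases that act on splicing factors, and of Wnt signalling. S100A9 was 6.13 ± 1.38 CPM in U937 empty vector and 0.225 ± 0.170 CPM in shS100A9 libraries (SD, n = 3 each). In THP-1 libraries it was 6.37 ± 2.71 CPM with empty vector and 27.9 ± 1.70 CPM with overexpression, and 14.0 ± 1.10 and 107 ± 5.09 CPM under Adavivint. CPM is the read count scaled to the library's total after TMM scaling (a trimmed mean of ratios between libraries), so it compares one gene across libraries.

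Library totals lay between 38433169 and 84409062 counts. All 8 myeloid markers were present, with summed levels of 742 to 1350 CPM per group, while the 4 erythroid markers summed to at most 0.648 CPM and the 3 epithelial markers in the table to at most 0.156 CPM. In U937 cells, empty vector replicate 2 and shS100A9 replicate 3 stood apart from their own replicates: the chi-square per degree of freedom against them was 141 to 235, and 8.33 and 13.6 between the remaining pairs. Results in U937 cells are therefore given with and without these 2 libraries. Whether the 3 replicates of a group were grown apart is not stated, and p-values then reflect only how these libraries vary, which may be technical. In bulk RNA, fewer mitochondria, fewer transcripts per mitochondrion and less RNA per cell cannot be told apart.

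The respiratory chain passes electrons from NADH through complex I, or from succinate through complex II, to ubiquinone, then through complex III and cytochrome c to complex IV, where oxygen is reduced. Complexes I, III and IV pump protons, and complex V, the ATP synthase, uses the gradient to make ATP. Complex II is built from nuclear genes alone, whereas the other complexes combine nuclear subunits with subunits made inside the organelle. Mitochondrial DNA is transcribed into long precursors that are cut into single RNAs, and MT-ND6 is the only mRNA of the light strand. In the nucleus, promoters of subunit genes are known for binding sites of NRF1, of ETS factors such as GABPA, and of YY1.

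Promoter windows from RefSeq (GRCh38.p14, from 250 bases before to 50 bases after a start) were matched by symbol for 70 of the 90 nuclear genes. Motifs were searched on both strands. The NRF1 motif, of which the SDHA window below shows 4 matches, was found in 24.3% of these 70 genes and in 6.98% of all 27305 genes that have such a RefSeq window. The ETS motif CCGGAAG was found in 21 of the 70 against 12.2%, and the YY1 motif AANATGGCG in 24.3% against 3.85%. The NF-Y motif CCAAT was found in 35.7% against 39.7%. The windows below belong to genes picked by hand, not by size of change. Under Adavivint, ATP5MC1, SDHA and UQCRC1 fell and UQCRH and ATP5MJ rose in both kinds of THP-1 cells. Each line gives the 250 bases before the start, 5′ to 3′ along the gene's strand, with matches to any of the 4 motifs in capitals.
ATP5MC1, chr17:48892537-48892786, plus strand: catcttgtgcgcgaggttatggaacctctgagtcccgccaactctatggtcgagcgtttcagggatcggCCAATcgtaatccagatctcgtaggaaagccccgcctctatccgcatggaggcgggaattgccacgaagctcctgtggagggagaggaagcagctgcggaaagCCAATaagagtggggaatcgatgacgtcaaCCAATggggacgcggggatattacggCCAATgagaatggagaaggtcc
SDHA, chr5:218070-218319, plus strand: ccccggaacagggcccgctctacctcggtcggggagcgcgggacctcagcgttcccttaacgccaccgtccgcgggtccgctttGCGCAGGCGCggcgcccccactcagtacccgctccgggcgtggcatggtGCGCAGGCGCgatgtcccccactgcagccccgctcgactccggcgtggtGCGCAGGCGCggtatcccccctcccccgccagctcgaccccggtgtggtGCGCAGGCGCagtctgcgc
UQCRC1, chr3:48609647-48609896, minus strand: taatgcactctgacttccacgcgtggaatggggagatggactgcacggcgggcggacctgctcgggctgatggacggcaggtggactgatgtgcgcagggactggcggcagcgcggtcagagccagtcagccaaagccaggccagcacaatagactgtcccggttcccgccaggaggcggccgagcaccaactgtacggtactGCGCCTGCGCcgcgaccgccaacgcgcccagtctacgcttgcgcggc
UQCRH, chr1:46303448-46303697, plus strand: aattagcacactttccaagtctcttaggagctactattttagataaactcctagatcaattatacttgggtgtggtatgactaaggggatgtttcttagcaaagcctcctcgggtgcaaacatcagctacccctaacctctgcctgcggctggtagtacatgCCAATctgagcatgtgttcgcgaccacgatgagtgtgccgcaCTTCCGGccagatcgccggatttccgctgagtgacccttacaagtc
ATP5MJ, chr14:103921530-103921779, minus strand: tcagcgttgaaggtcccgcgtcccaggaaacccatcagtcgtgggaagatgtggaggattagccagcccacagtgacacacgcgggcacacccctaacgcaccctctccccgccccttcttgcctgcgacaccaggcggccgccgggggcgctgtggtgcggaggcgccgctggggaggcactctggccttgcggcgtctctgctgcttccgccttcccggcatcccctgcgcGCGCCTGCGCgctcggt

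The ATP5MC1 window holds 4 CCAAT matches and no NRF1 match, and the SDHA window holds 4 NRF1 matches. A match is a description of these letters and says nothing of factor binding. Of members lower with Adavivint in both kinds of THP-1 cells 21.2% of 33 held the YY1 motif, and of those higher in both 33.3% of 18. The shares for the ETS motif were the same. They were 21.2% and 27.8% for NRF1, and 30.3% and 33.3% for NF-Y.

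Levels between genes were compared per length, as RPKM (CPM divided by the length in kilobases of the median coding transcript). Mitochondrially encoded transcripts were the most abundant: their median was 3690 RPKM in THP-1 empty vector cells and 3090 RPKM in U937 empty vector cells, against 97.6 and 102 RPKM for 86 nuclear subunits. MT-CO3 headed the list in THP-1 cells with 12500 RPKM, and MT-ND6 was the lowest of the 13 with 789 RPKM. By counts, the 13 genes held 5.64 ± 0.498% of each THP-1 empty vector library and 4.96 ± 0.403% of each U937 empty vector library (SD, n = 3 each), while the nuclear members held 0.992 ± 0.0168% and 0.960 ± 0.0469%. MT-CO1, MT-CO3 and MT-ND4 carried 59.2% of the mitochondrially encoded counts in THP-1 and 60.7% in U937 empty vector cells.

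Among nuclear subunits of THP-1 empty vector cells the medians per complex ran from 64.0 RPKM for complex I through 108 for complex III, 123 for complex II and 144 for complex V to 154 for complex IV. These medians differ less than the members within a complex do. In complex I the levels spanned 14.5 RPKM for NDUFV3 to 314 RPKM for NDUFS5, and in complex V 36.7 RPKM for ATP5F1E to 563 RPKM for ATP5MF. Several tissue-restricted isoforms of complex IV had few or no counts. COX6A2, the heart and muscle form of COX6A, had 0 counts in all 12 untreated libraries and 4 counts in each Adavivint group. The group means of COX4I2, COX6B2 and COX7A1 stayed under 0.2 CPM in untreated THP-1 cells. COX8C, which is also tissue-restricted, was at 6.71 ± 0.921 CPM in THP-1 and 6.29 ± 0.515 CPM in U937 empty vector cells (SD, n = 3 each). COX7B2 was not analysed here.

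**Figure D1:**
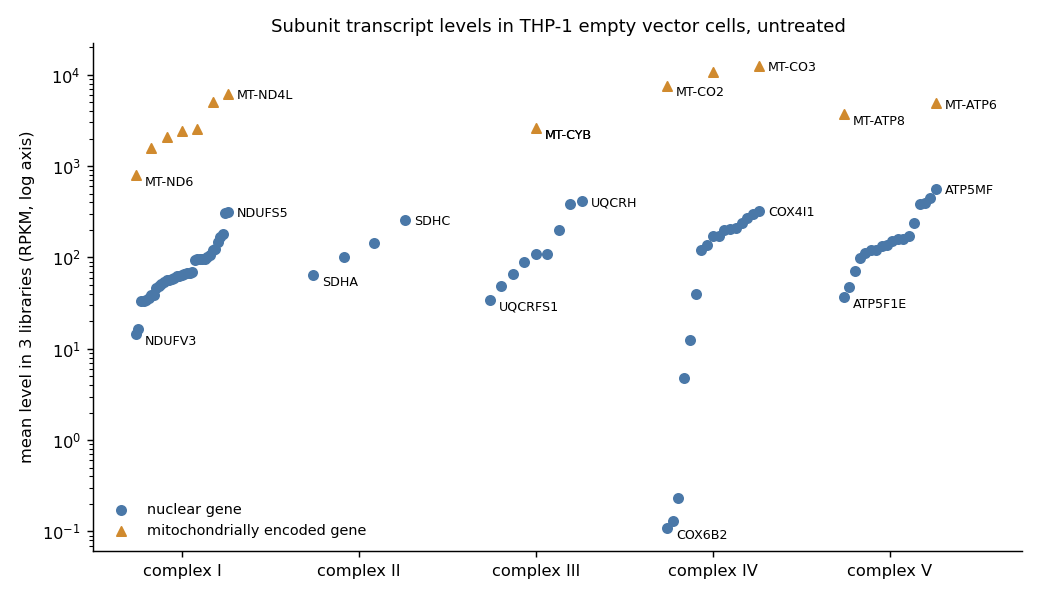
Mean RPKM (log axis) of each respiratory chain gene in 3 untreated THP-1 empty vector libraries, by complex, with nuclear genes as circles and mitochondrially encoded genes as triangles. All 13 mitochondrially encoded genes lie above the highest nuclear gene, ATP5MF at 563 RPKM, and COX6A2, at 0, is not drawn.

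In THP-1 empty vector cells given Adavivint, all 4 genes of complex II fell. Each other complex held nuclear members that rose and nuclear members that fell, as the whole set of genes did. The drug changed most genes of these cells: 44.2% of the 15403 genes tested rose and 41.1% fell at an edgeR adjusted p below 0.05. Of 86 nuclear members tested, 22 rose and 50 fell, and 3 rose and 19 fell by at least 2-fold, against 25.8% and 21.7% of all genes. Of the 3, UQCRB alone was well expressed in both groups, and COX4I2 and the readthrough locus ATP5MF-PTCD1 passed the filter on low counts through the drug groups, where they were high. The median log2 fold change of the 86 was -0.236, and that of all genes 0.0577. Without a fold limit, 58.1% of the nuclear members fell, above the 41.1% of all genes, and 25.6% rose, below the 44.2%. By at least 2-fold 22.1% fell, near the 21.7% of all genes. Counts held by the nuclear members went from 0.992 ± 0.0168% to 0.862 ± 0.00894% of the library.

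**Figure D2:**
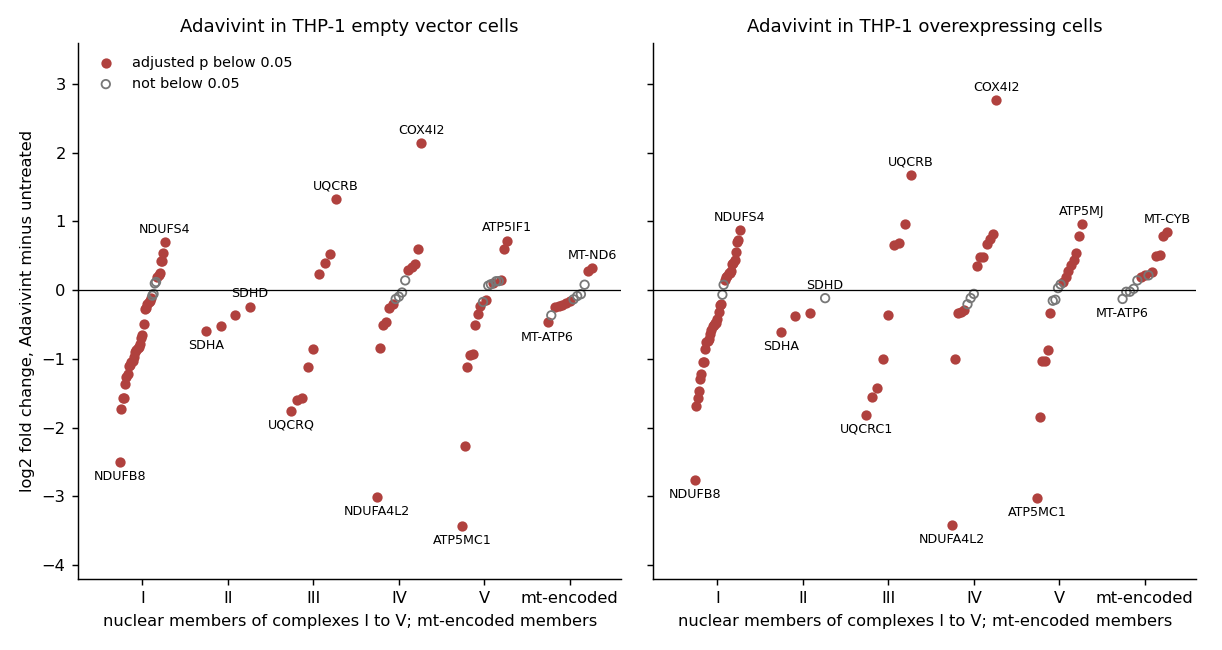
Log2 fold change under Adavivint of every tested member (points, sorted within each column) in THP-1 empty vector cells (left) and overexpressing cells (right), for nuclear genes by complex and for mitochondrially encoded genes. Filled points have an edgeR adjusted p below 0.05. Readthrough loci and copies are not drawn. ATP5MC1 and NDUFA4L2 lie lowest in both panels, and UQCRB and COX4I2 highest among nuclear members.

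In complex I, 7 nuclear subunits rose and 26 fell of 37. These were 18.9% and 70.3%, beside 44.2% and 41.1% of all genes. NDUFB8, an accessory subunit of the membrane arm, was at 127, 128 and 120 CPM in the empty vector libraries and at 22.2, 27.9 and 16.4 CPM under the drug. The groups lay far apart, and the change was 5.64-fold (log2 fold change -2.50, SE 0.18, adjusted p = 6.98e-09). NDUFB5, a further membrane arm subunit, fell 3.32-fold (log2 fold change -1.73, SE 0.08, adjusted p = 4.49e-11). Of the 7 nuclear core subunits 4 fell and 1 rose, with a median log2 fold change of -0.26. The 30 accessory subunits had a median of -0.678, and 22 fell and 6 rose. By at least 2-fold, 28.6% of the core and 30% of the accessory subunits fell. NDUFS1 and NDUFV1, core subunits that carry iron-sulfur clusters, fell 2.13- and 1.96-fold. NDUFS4, an accessory subunit next to the NADH-oxidising module, rose from 34.3 ± 1.90 to 56.0 ± 2.69 CPM (SD, n = 3 each), a log2 fold change of 0.71 (SE 0.07, adjusted p = 2.69e-07), and NDUFB11 rose 1.45-fold. NDUFAB1, the mitochondrial acyl carrier protein, fell 1.58-fold.

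All 4 genes of complex II, succinate dehydrogenase, fell, beside 41.1% of all genes. SDHA, the flavoprotein, was at 135, 130 and 142 CPM untreated and at 86.2, 90.3 and 94.1 CPM with the drug, with no overlap (log2 fold change -0.59, SE 0.06, adjusted p = 6.36e-07). SDHC, a membrane anchor, fell 1.43-fold, SDHB, the iron-sulfur subunit, 1.28-fold, and SDHD, the other anchor, 1.18-fold. None of the 4 reached 2-fold.

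Complex III had 4 members up, 5 down and none uncalled. These were 44.4% and 55.6%, beside 44.2% and 41.1% of all genes. UQCRC1 and UQCRC2, the core proteins that face the matrix, fell. UQCRC1 went from 215, 217 and 214 CPM to 76.5, 77.3 and 64.9 CPM (log2 fold change -1.56, SE 0.06, adjusted p = 2.03e-11), and UQCRC2 fell 3.02-fold (log2 fold change -1.59, SE 0.05, adjusted p = 1.34e-12). UQCRQ, a small ubiquinone-binding subunit, fell 3.37-fold, and CYC1, cytochrome c1, 2.16-fold. UQCRB, the other small subunit near the quinone site, rose from 243, 246 and 249 CPM to 636, 589 and 635 CPM (log2 fold change 1.33, SE 0.05, adjusted p = 9.48e-12). UQCR10, UQCRFS1 (the Rieske iron-sulfur protein) and UQCRH (the hinge protein) rose 1.44-, 1.32- and 1.17-fold. The ratio of UQCRB to UQCRC1 counts was thus 1.14 ± 0.0141 in untreated and 8.57 ± 1.10 in treated empty vector libraries (SD, n = 3 each).

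In complex IV, 5 of 15 nuclear members tested rose, the barely detected COX4I2 among them, and 6 fell. These were 33.3% and 40%, beside 44.2% and 41.1% of all genes. COX4I1, the regulatory subunit found in most tissues, rose from 257 ± 10.0 to 390 ± 7.51 CPM (SD, n = 3 each), a log2 fold change of 0.60 (SE 0.05, adjusted p = 2.13e-08). COX6B1 and COX6A1 rose by 0.38 and 0.29 on the log2 scale. COX7A2L, which helps join complexes III and IV, fell 1.79-fold, COX6C 1.42-fold, COX7A2 1.38-fold and COX8A 1.15-fold. NDUFA4L2, the hypoxia-induced relative of NDUFA4, fell from 5.67 ± 0.712 to 0.705 ± 0.0762 CPM (8.02-fold lower, SE of the log2 fold change 0.22, adjusted p = 1.01e-08). NDUFA4 itself was not called (log2 fold change 0.14, adjusted p = 0.112), nor was COX7B (log2 fold change -0.13, adjusted p = 0.111). COX4I2, the lung and hypoxia form of COX4, was at 0.0908 ± 0.0441 CPM untreated, on 15 counts in all, and at 0.412 ± 0.218 CPM with the drug (SD, n = 3 each). It passed the filter on low counts through the drug groups, where it was high, so its values are given as a description.

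In complex V, 4 of 18 nuclear members rose and 9 fell. These were 22.2% and 50%, beside 44.2% and 41.1% of all genes. The 3 genes for the same c-ring protein differed in their changes. The mature c subunit is made from ATP5MC1, ATP5MC2 or ATP5MC3, which differ in the import sequence. ATP5MC1 was at 74.0, 60.7 and 62.1 CPM untreated and at 6.50, 5.95 and 5.78 CPM with the drug, the largest fall of all members (10.8-fold, log2 fold change -3.44, SE 0.09, adjusted p = 3.62e-13). ATP5MC2 fell 1.90-fold, and ATP5MC3 was not called (log2 fold change 0.09, adjusted p = 0.224). ATP5MC3 counts were 5.70 ± 0.291 times those of ATP5MC1 before and 65.5 ± 4.12 times after treatment (SD, n = 3 each). ATP5MF, a small membrane subunit, fell 4.81-fold. ATP5IF1, the inhibitor protein of the ATP synthase, rose from 63.3 ± 3.44 to 104 ± 2.15 CPM (log2 fold change 0.72, SE 0.05, adjusted p = 2.73e-09), and ATP5MJ rose 1.52-fold.

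ATP5MF-PTCD1, a readthrough locus that shares exons with ATP5MF, was at 0.140 CPM untreated and at 1.55 CPM with the drug. No source used here gives the strand setting or the handling of shared reads, so the values of the readthrough loci ATP5MF-PTCD1 and NDUFC2-KCTD14, and of the copies UQCRHL and ATP5MGL, are uncertain.

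**Figure D3:**
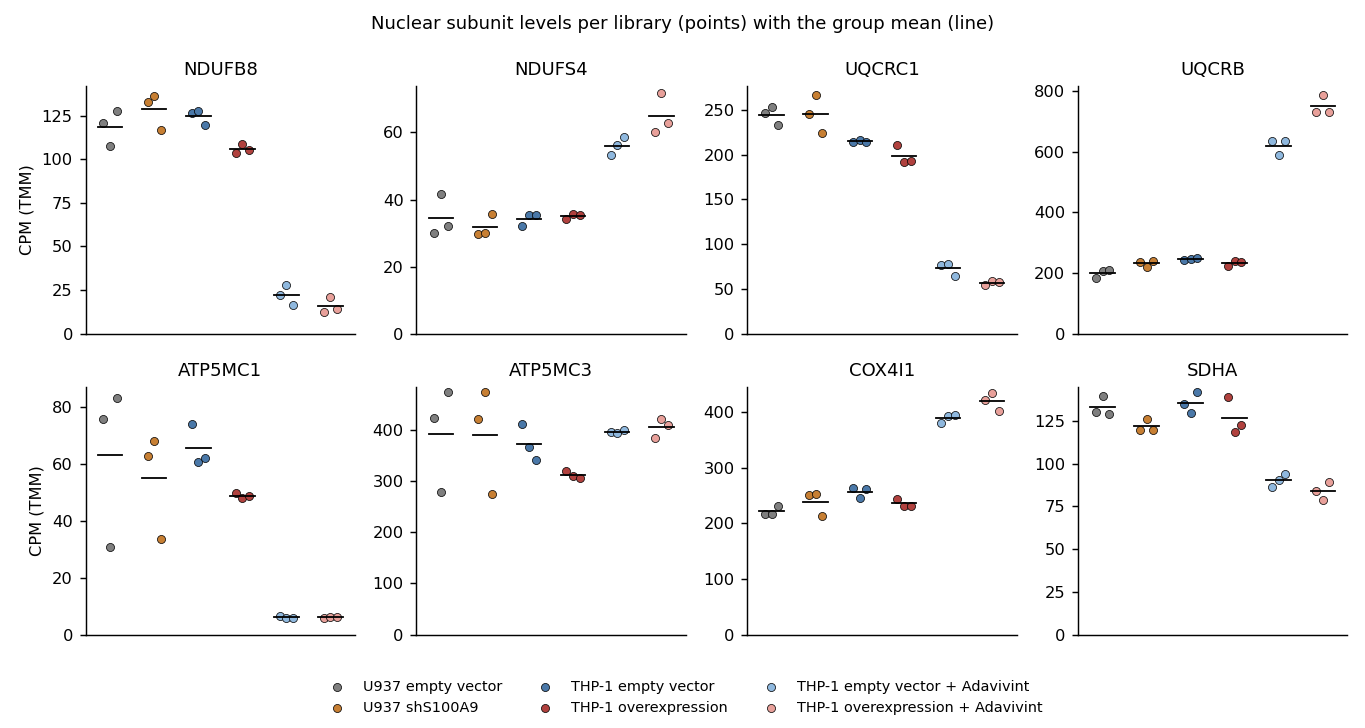
CPM of 8 nuclear members in each library (points, 3 per group) with the group mean (line), on axes that start at 0. NDUFB8, UQCRC1, ATP5MC1 and SDHA are low and NDUFS4, UQCRB and COX4I1 high in both Adavivint groups, and ATP5MC1 is also low in 2 U937 libraries, empty vector 2 and shS100A9 3.

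The same drug in S100A9-overexpressing cells gave most nuclear members the same direction, and 7 of the 13 mitochondrially encoded members rose. Of 86 nuclear members 35 rose and 41 fell, beside 43.4% and 41.3% of all genes. The median log2 fold change was -0.147. In both drug comparisons 63 nuclear members were called in the same direction, 73.3% of those tested, against 77.1% of all genes. The 2 comparisons share no library. ATP5MC1 fell 8.18-fold (log2 fold change -3.03, SE 0.09, adjusted p = 9.63e-13), NDUFB8 6.77-fold, UQCRC1 3.51-fold and NDUFA4L2 10.7-fold. UQCRB rose 3.20-fold, from 224, 238 and 235 CPM to 731, 787 and 731 CPM (log2 fold change 1.68, SE 0.05, adjusted p = 1.09e-12). ATP5MJ, UQCR10 and NDUFS4 rose 1.95-, 1.95- and 1.83-fold. SDHA, SDHB and SDHC fell by 0.60, 0.33 and 0.38 on the log2 scale, and SDHD missed the threshold (log2 fold change -0.12, adjusted p = 0.0681). NDUFB3, NDUFB9 and NDUFC2, accessory subunits of complex I, fell with empty vector by 0.11 to 0.20 on the log2 scale and rose with overexpression by 0.15 to 0.25, against 1.03% of all genes with opposite calls.

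Mitochondrially encoded transcripts moved little with empty vector: 2 rose and 6 fell, none by 2-fold, with a median log2 fold change of -0.159. Those calls were 15.4% and 46.2% of the 13, beside 44.2% and 41.1% of all genes. MT-ATP6, the a subunit of the ATP synthase, fell most, from 3054, 3798 and 3057 CPM to 2451, 2330 and 2377 CPM (log2 fold change -0.47, SE 0.07, adjusted p = 2.28e-05). MT-ND1 rose 1.21-fold. MT-ND6 had a log2 fold change of 0.33, but its libraries overlapped and the call was lost without empty vector replicate 1 or 3 or drug replicate 1 or 3 (log2 fold change 0.26 to 0.44 over libraries left out). The call of MT-CYB (log2 fold change -0.22, adjusted p = 0.0420) was lost in 4 of 6 such fits, without empty vector replicate 2 or 3 or drug replicate 1 or 2, and ranged from -0.35 to -0.09. That of MT-CO3 (log2 fold change -0.16) was lost without empty vector replicate 2 or drug replicate 2, with a range of -0.22 to -0.10.

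In overexpressing cells none of the 13 fell, and the 7 that rose stood beside 43.4% of all genes, with a median log2 fold change of 0.214. MT-CYB, cytochrome b of complex III, stood at 1910, 1844 and 1804 CPM untreated and at 3352, 3455 and 3280 CPM with the drug. The groups did not overlap (log2 fold change 0.85, SE 0.09, adjusted p = 9.35e-07). MT-ND1 and MT-ND2, subunits of the proton-pumping arm of complex I, rose by 0.79 and 0.51 on the log2 scale, MT-ND6 1.41-fold, and MT-CO1 and MT-CO3 1.20- and 1.16-fold. MT-ND5 rose 1.14-fold, a call lost without untreated replicate 2 or 3 or drug replicate 1 or 2 (log2 fold change 0.12 to 0.24). MT-ND3, MT-ND4, MT-ND4L, MT-CO2, MT-ATP6 and MT-ATP8 were not called. The 13 genes together held 5.15 ± 0.0826% of untreated and 5.72 ± 0.134% of treated overexpressing libraries, but 5.64 ± 0.498% of untreated and 5.14 ± 0.156% of treated empty vector libraries (SD, n = 3 each).

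**Figure D4:**
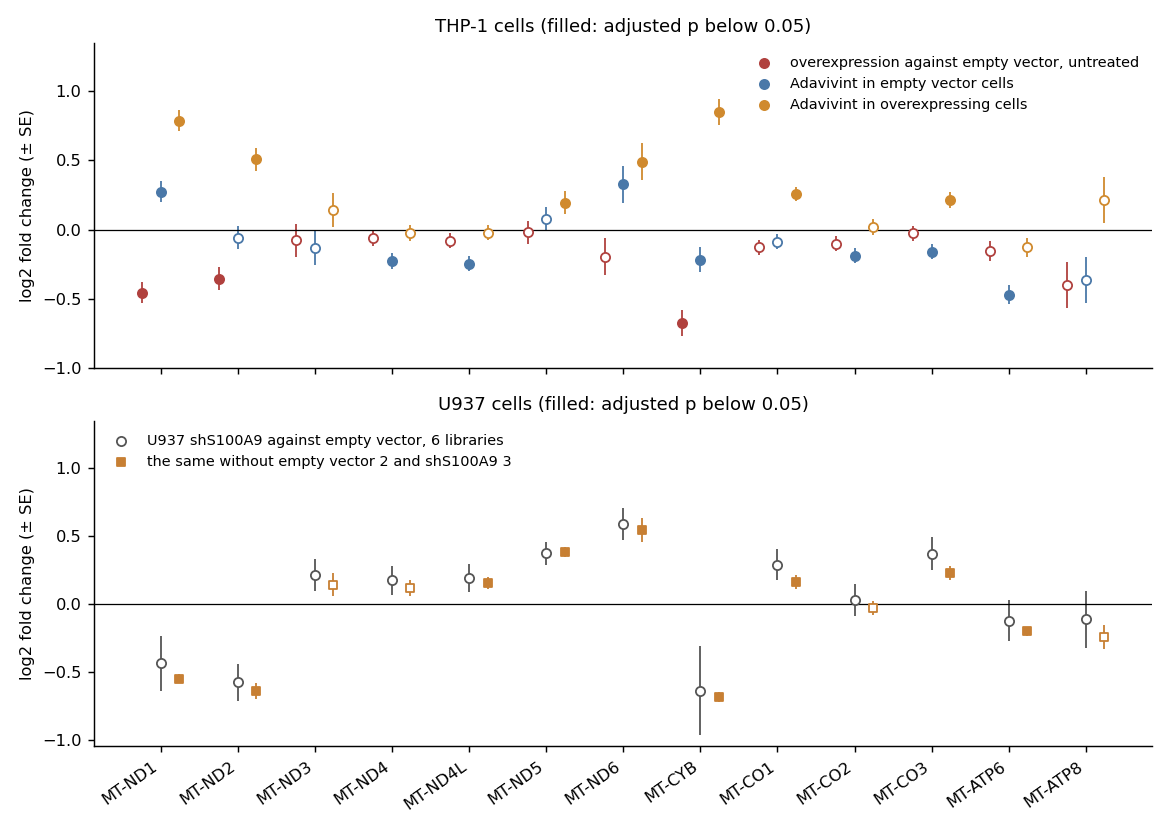
Log2 fold change ± SE of the 13 mitochondrially encoded genes in 3 THP-1 comparisons (top) and in U937 shS100A9 against empty vector (bottom) with all 6 libraries (circles) and without the 2 that stood apart (squares); filled points have an edgeR adjusted p below 0.05. In THP-1 cells MT-CYB lies at -0.68 with overexpression and at 0.85 with Adavivint in overexpressing cells, and in U937 cells MT-CYB, MT-ND2 and MT-ND1 lie lowest in both fits.

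S100A9 overexpression without drug was accompanied by slightly lower levels of many nuclear subunits and of 3 mitochondrially encoded ones. Of all 15403 genes tested 13.0% fell and 14.9% rose. Of the 86 nuclear members 35 fell, which is 40.7%, and 2 rose. None reached 2-fold, as 1.84% of all genes did, and the median log2 fold change was -0.163, against 0.0165 for all genes. Of the 86, called or not, 55 were without overlap between the groups, beside 41.9% of all genes in either direction. The 35 that fell were among these 55, but they had been selected by a small p. The count of nuclear members called, 37, was 24 without empty vector replicate 1 and 24 without overexpression replicate 3, and 25 without overexpression replicate 2.

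By complex, 15 of 37 nuclear members of complex I fell, 2 of 4 of complex II, 6 of 9 of complex III, 5 of 15 of complex IV and 7 of 18 of complex V. NDUFB2, a membrane arm accessory subunit, was at 57.0, 45.6 and 46.7 CPM with empty vector and at 34.4, 33.3 and 35.3 CPM with overexpression, a fall of 0.52 on the log2 scale (SE 0.09, adjusted p = 0.000992). ATP5MF (log2 fold change -0.48, SE 0.07, adjusted p = 0.000671), NDUFS5 (-0.46), UQCR11 (-0.44) and UQCRQ (-0.44) followed. UQCR11 and UQCRQ are small supernumerary subunits of complex III. ATP5MC1 fell 1.33-fold, ATP5MC3 1.18-fold, COX7B 1.29-fold, and COX6A1 by 0.34 on the log2 scale.

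COX7A2L rose from 130, 138 and 130 CPM to 154, 160 and 161 CPM (log2 fold change 0.27, SE 0.06, adjusted p = 0.00398). SDHC and SDHD (log2 fold changes -0.16 and -0.17) kept their calls in 1 of 6 fits with a library left out, without empty vector replicate 3 for SDHC and replicate 2 for SDHD. The call of NDUFAB1 (-0.31) was lost without empty vector replicate 1 or overexpression replicate 2 or 3, and that of COX7A2 (-0.23) without overexpression replicate 2. Over the libraries left out, these 4 genes kept their signs. SDHA, SDHB, ATP5MC2 and ATP5IF1 were not called, with adjusted p of 0.332, 0.319, 0.179 and 0.273.

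The members that fell were mostly short, a division made after their values were seen. Of 58 nuclear members with a median transcript under 1000 bases 30 fell, which is 51.7%, and of 28 longer members 5 fell, which is 17.9%. Over all genes tested the shares were 18.3% of 1377 short and 12.7% of 13707 longer genes. The medians of short and longer members were -0.195 and -0.0642, and those of all short and longer genes -0.0300 and 0.0206. Short members also lay low in the 2 U937 libraries that stood apart, at -0.166 and -0.205 from the empty vector mean, against -0.00280 to 0.158 in the other 4. In the Adavivint libraries short members lay between -0.288 and -0.15, and longer members between -0.687 and -0.543. The part of library composition in the overexpression result was not tested.

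**Figure D5:**
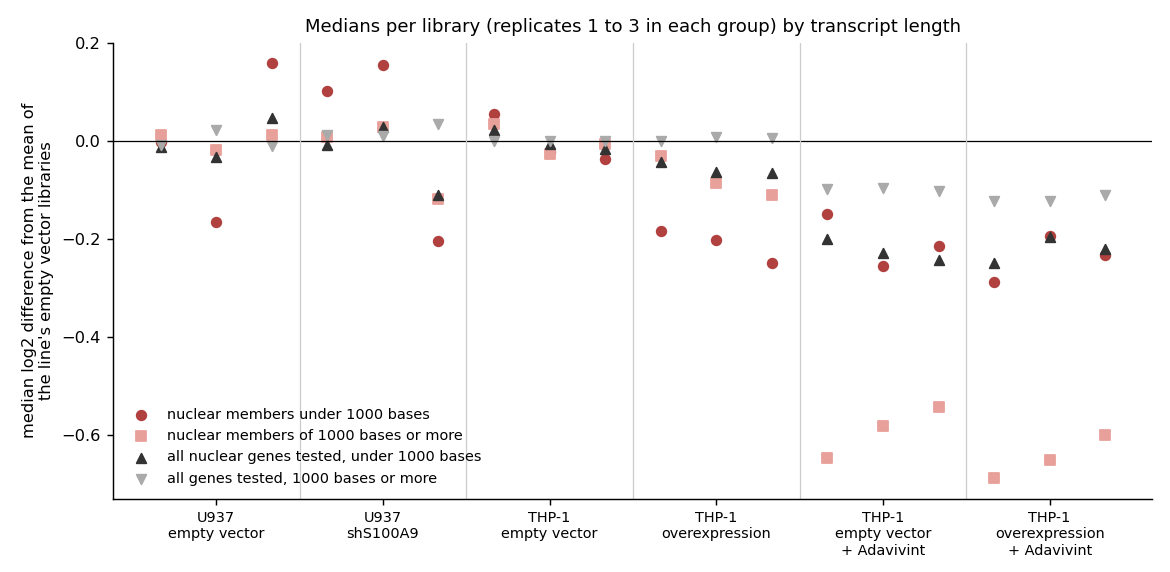
Median log2 difference, log2(CPM + 0.5), of each library from the mean of its line's empty vector libraries, for nuclear members and all genes tested in both lines, split at a transcript length of 1000 bases. Short nuclear members lie between -0.249 and -0.184 in the 3 untreated THP-1 overexpression libraries and near -0.2 in the 2 U937 libraries that stood apart. In the Adavivint libraries short members lie between -0.288 and -0.15, and longer members lie lowest.

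Among the mitochondrially encoded genes, MT-CYB fell from 2389, 3506 and 3084 CPM to 1910, 1844 and 1804 CPM with overexpression (log2 fold change -0.68, SE 0.09, adjusted p = 0.000371). MT-ND1 fell 1.37-fold and MT-ND2 1.28-fold, and all 13 estimates were negative, with a median of -0.129. The remaining 10 were not called. Counts of MT-CO1 per count of MT-CYB were 6.81, 5.00 and 4.98 with empty vector and 7.77, 8.26 and 8.02 with overexpression, without overlap. In U937 cells the same ratio was 5.21 and 5.56 in empty vector replicates 1 and 3, 9.42 in replicate 2, which stood apart, and 10.1, 9.36 and 18.8 in the shS100A9 replicates.

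Under Adavivint, the overexpressing and empty vector cells differed in few nuclear members. Of nuclear members 2 rose and 1 fell with overexpression, against 3.69% and 4.80% of all genes. UQCRB was at 636, 589 and 635 CPM in treated empty vector libraries and at 731, 787 and 731 CPM in treated overexpressing ones (log2 fold change 0.28, SE 0.05, adjusted p = 0.00514). UQCRH rose 1.20-fold and UQCRC1 fell 1.28-fold, so all 3 belonged to complex III. Of the 13 mitochondrially encoded members 3 rose, which is 23.1%, beside 3.69% of all genes, and none fell. Their median log2 fold change was 0.182, against -0.00304 for all genes, and 1 of the 13 estimates was negative. MT-CO3, MT-CYB and MT-CO1 rose 1.27-, 1.31- and 1.16-fold. The calls of MT-CYB and MT-CO1 were lost without replicate 1 or 2 of either group, with log2 fold changes of 0.37 to 0.42 and 0.19 to 0.24. Scaling to library totals moved the share of higher calls among all called genes from 43.5% to 20.2%, while MT-CYB and MT-CO1 kept their calls.

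The difference between the drug effects in the 2 kinds of THP-1 cells, tested as an interaction, was positive for 30 nuclear members and negative for 1, beside 8.04% and 11.2% of all genes. It was positive for 6 mitochondrially encoded members and negative for none. The median over nuclear members was 0.177, against -0.0234 for all genes. Among those called, MT-CYB had the largest difference (log2 1.07, SE 0.13, adjusted p = 0.000424), followed by MT-ND2 (0.57), NDUFB2 (0.56), MT-ND1 (0.51), UQCR11 (0.50) and COX7B (0.49). This comparison uses the same untreated libraries as the overexpression comparison above, in which MT-CYB, NDUFB2, UQCR11 and COX7B were low, so the pair are not independent. Short members made up 27 of the 30. The 31 nuclear calls became 16 without the empty vector drug replicate 2, 18 without overexpression replicate 3 or overexpression drug replicate 2, and 19 without overexpression replicate 2. ATP5MC1 (0.40) kept its call in 5 of 12 such fits, those without an untreated empty vector replicate or drug replicate 1 of either kind of cell. With library totals the share of positive calls among all called genes went from 41.7% to 28.8%.

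S100A9 knockdown in U937 cells gave no call among the members. At an edgeR adjusted p below 0.05, 0 of 84 nuclear and 0 of 13 mitochondrially encoded members changed, beside 1.77% of the 13016 genes tested. At an unadjusted p below 0.05 there were 5 and 5, beside 14.3% of all genes, and DESeq2 called 1 and 3. The nuclear median was -0.0134. MT-CYB was at 2923, 1423 and 2829 CPM with empty vector and at 1834, 1747 and 1051 CPM with shS100A9 (log2 fold change -0.64, SE 0.33, adjusted p = 0.450). The groups overlapped through empty vector replicate 2 alone. MT-ND6 was at 349, 284 and 288 CPM with empty vector and at 446, 487 and 463 CPM with shS100A9, without overlap (log2 fold change 0.59, SE 0.12, adjusted p = 0.0660), and MT-ND2 had -0.58 (adjusted p = 0.115).

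Without the 2 libraries that stood apart, 8 nuclear and 9 mitochondrially encoded members were called, where 32.9% of all genes were, 15.2% higher and 17.7% lower. MT-CYB, MT-ND2, MT-ND1 and MT-ATP6 were then lower (log2 fold changes -0.69, -0.64, -0.55 and -0.20) and MT-ND6, MT-ND5, MT-CO3, MT-CO1 and MT-ND4L higher (0.55, 0.39, 0.23, 0.16 and 0.15). Of nuclear members NDUFA5, ATP5MC1, ATP5F1A and NDUFV2 were lower (-0.47 to -0.24), and COX8C, NDUFB4, ATP5MJ and COX4I1 higher (0.16 to 0.46). With 2 libraries a group, these values rest on a small spread.

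The empty vector cells of the 2 lines were also compared, with few calls that depended on single libraries. Line and any batch cannot be told apart. U937 empty vector cells had 2 nuclear members higher and 5 lower than THP-1 empty vector cells, beside 11.4% and 14.8% of all genes. NDUFB11 was higher by 0.63 on the log2 scale, with means of 70.7 in U937 and 45.3 CPM in THP-1 cells (adjusted p = 0.00230), as was UQCRFS1. NDUFA3, COX7A2, NDUFS6, UQCRB and ATP5MG were lower by 0.25 to 0.62 on the log2 scale. All 13 mitochondrially encoded estimates were negative (median -0.261), and MT-ND6 and MT-ND4L were called. The 7 nuclear calls became 19 without U937 replicate 2, 2 without U937 replicate 1 or THP-1 replicate 3 and 1 without THP-1 replicate 1 or 2, and the 2 mitochondrially encoded calls became 1 without U937 replicate 1 and 0 without U937 replicate 3 or any THP-1 replicate. NDUFB11 was the only one of these genes whose call held with each library left out.

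MT-ATP8 overlaps MT-ATP6, MT-ND4L overlaps MT-ND4, and MT-ND6 lies on the strand opposite its neighbours, so with the strand setting unknown their reads may be shared.

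Genes that serve the chain without belonging to it were followed in 10 lists. Their counts stand beside 44.2% of all genes higher and 41.1% lower with Adavivint in empty vector cells, and 14.9% and 13.0% with overexpression. Under Adavivint in empty vector cells, 15 of 19 genes of electron carriers and ubiquinone synthesis fell and 4 rose. COQ2, the prenyltransferase of ubiquinone synthesis, fell from 27.7 ± 1.74 to 2.38 ± 0.426 CPM, and COQ5 and COQ9 fell by 2.74 and 1.81 on the log2 scale. Of 18 genes of the TCA cycle and pyruvate dehydrogenase 15 fell and 2 rose. IDH2, the mitochondrial NADP-dependent isocitrate dehydrogenase, fell from 307 ± 8.83 to 27.9 ± 2.08 CPM (log2 fold change -3.46, SE 0.07, adjusted p = 3.17e-14). Both lists had larger falls at the median, -0.900 and -0.650, than the 86 nuclear subunits as a whole (-0.236), whereas the subunits of complex III (-0.862) and complex I (-0.660) lay below the TCA list.

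Of 10 assembly factors of complexes II and III, 7 fell and 2 rose. LYRM7, a chaperone of the Rieske protein, fell from 50.8 ± 1.18 to 2.21 ± 0.744 CPM (log2 fold change -4.53, SE 0.16, adjusted p = 4.61e-12), and UQCC2 fell by 3.86 on the log2 scale. Of complex I assembly factors 11 of 18 fell and 5 rose, among them NDUFAF5, from 7.74 ± 0.340 to 46.4 ± 2.64 CPM. Complex IV assembly had 13 lower and 6 higher of 25, with COX11, which delivers copper, down by 2.22 on the log2 scale. ATP synthase assembly went the other way, with 3 of 5 higher (ATPAF1, TMEM242 and FMC1) and none lower, and 3 of 4 carriers of ADP, ATP and phosphate rose, SLC25A6 by 1.19 on the log2 scale.

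For the upkeep of mitochondrial DNA and RNA, 9 of 15 replication and transcription genes fell and 4 rose under the drug, and 14 of 20 RNA processing genes fell and 3 rose. TWNK, the replicative helicase, fell by 1.32 and FASTKD2 by 1.83 on the log2 scale. Of 10 nuclear regulators 4 rose and 5 fell: YY1 rose from 199 ± 5.65 to 427 ± 10.8 CPM, GABPB1 rose by 1.12, and GABPB2, the other partner of GABPA, fell by 2.34 on the log2 scale.

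With overexpression alone, 7 of 20 mitochondrial RNA processing genes fell and 1 rose. FASTKD5 (log2 fold change -0.54), SLIRP (-0.41), a partner of LRPPRC in mRNA stability, and TBRG4 (-0.25) were among those that fell. In complex I assembly 3 of 18 fell and none rose, and in complex IV assembly 7 of 25 fell and 3 rose. Of 10 nuclear regulators 3 fell (ESRRA -0.42, PPARGC1B -0.29 and PPRC1 -0.33) and 1 rose, and of 18 TCA cycle and pyruvate dehydrogenase genes 4 fell and 1 rose. The other lists were split or rose. Of 15 genes of mitochondrial DNA replication and transcription 2 fell (TWNK -0.49 and POLRMT, the mitochondrial RNA polymerase, -0.32) and 2 rose, among them POLG2 (0.23), whose call was lost without empty vector replicate 1 or 2 or overexpression replicate 2 or 3. Of 19 electron carrier and ubiquinone genes 2 fell, among them CYCS, cytochrome c (-0.45), and 3 rose, among them ETFDH (0.25) and COQ8B (0.28, lost without overexpression replicate 2). In ATP synthase assembly 2 of 5 rose and 1 fell, in complex II and III assembly 1 of 10 rose and none fell, and 2 of 4 carriers of ADP, ATP and phosphate rose and none fell. In U937 cells SLC25A5, an ADP/ATP carrier, was the single call of the 10 lists with knockdown, with 479 ± 13.2 CPM in empty vector and 308 ± 26.8 CPM in shS100A9 cells (a log2 fold change of -0.64 with an adjusted p of 0.0389), and it kept the call in 1 of 6 fits with a library left out, the one without empty vector replicate 2.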

How the data were processed

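RNA of 18 libraries was analysed as one table of read counts per gene deposited by the authors; HISAT2 2.0.4 is named in the submitters' processing notes, while no source used here gives the counter, the genome build or whether strand was used. Genes were named through GENCODE 29 and RefSeq tables (18642 of 18670 identifiers had a symbol). Counts were tested with edgeR 4.0.16 (R 4.3.3) by its quasi-likelihood test after TMM scaling and filterByExpr, in 3 fits: 6 U937 libraries, 12 THP-1 libraries, and the empty vector libraries of both lines. Benjamini-Hochberg adjustment covered all genes of a fit, and calls have an adjusted p below 0.05. CPM used TMM sizes over all 18 libraries. RPKM used the median coding transcript length, in place of the planned merged exon length. DESeq2 1.42.0, other scalings and filters, a replicate block and leaving out libraries were alternatives. Simulated counts were run through the knockdown, untreated overexpression and line comparisons only. The simulation held no libraries that stood apart, and its outcome is not given here. Members and lists were chosen with earlier results of these data known. Named genes were the mitochondrially encoded genes, fixed isoform sets, the SDH genes, ATP5IF1, NDUFAB1, up to 2 higher and 2 lower called nuclear members per complex by log2 fold change (where a group mean reached 5 CPM), and up to 3 calls per related list by smallest p; others, and the split at 1000 bases, were chosen after values were seen. The values of 1 member are not reported here.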

Additional observations from a re-analysis of the deposited data

Results flagged for a closer look

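The effect of Adavivint differed between S100A9-overexpressing and empty vector THP-1 cells for the members below, by the edgeR interaction term at an adjusted p below 0.05. Values are log2 differences, overexpressing minus empty vector cells. Of mitochondrially encoded genes they were MT-CYB 1.07, MT-ND2 0.565, MT-ND1 0.513, MT-CO3 0.373, MT-CO1 0.345 and MT-ATP6 0.342. In the NDUFA and NDUFC genes they were NDUFA2 0.42, NDUFA3 0.374, NDUFA4 0.344, NDUFA8 0.342, NDUFA12 0.303, NDUFA13 0.253 and NDUFC2 0.357. In the NDUFB and NDUFS genes they were NDUFB1 0.398, NDUFB2 0.562, NDUFB3 0.401, NDUFB9 0.298, NDUFB10 0.303, NDUFS5 0.421 and NDUFS6 0.354. Complex III gave UQCR10 0.443, UQCR11 0.496, UQCRB 0.348, UQCRFS1 0.265 and UQCRH 0.46. Complex IV gave COX4I1 0.222, COX6A1 0.37, COX6B1 0.365 and COX7B 0.485. Complex V gave ATP5F1E 0.411, ATP5MC1 0.404, ATP5MC3 0.278, ATP5MF 0.416, ATP5MG 0.294, ATP5MJ 0.362 and ATP5PF 0.373. All of them use the untreated libraries of both kinds of cells, and the part of those libraries' composition was not tested.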

How the results depend on the processing

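Estimates near 0 could change direction between runs. MT-CO2 with knockdown had a log2 fold change of 0.0277 with all 6 libraries and -0.0285 without the 2 that stood apart. It was called in neither fit. With knockdown, DESeq2 called 1 nuclear and 3 mitochondrially encoded members, and leaving out the 2 libraries that stood apart, 8 and 9. Over all genes the 231 calls became 879 with DESeq2, 4296 without those 2 libraries and 3 with the replicate block. Under Adavivint the overexpression comparison called 5 nuclear members with a filter of 1 CPM, 9 with DESeq2 and 5 with only its 6 libraries, and 5 mitochondrially encoded members with DESeq2 and with its 6 libraries; DESeq2 called 2016 genes in place of 1309. Between the lines, 13 nuclear members were called with library totals, 19 with DESeq2 and 4 with the replicate block, and 0 mitochondrially encoded ones with the block. The nuclear median of the drug effect was -0.191 in empty vector cells with DESeq2 and its size factors, and in overexpressing cells -0.0849 with both and -0.214 with library totals; the mitochondrially encoded median there was 0.276 and 0.146. Library totals gave nuclear and mitochondrially encoded medians of -0.024 and 0.124 for overexpression under the drug, and a nuclear median of 0.111 for the interaction. The cause was not tested. With 1 library left out, calls ranged over 0 to 1 mitochondrially encoded members for knockdown, 24 to 39 nuclear and 3 to 5 mitochondrially encoded for overexpression (nuclear median -0.181 to -0.12), 1 to 3 mitochondrially encoded for overexpression under the drug, 16 to 34 nuclear for the interaction (mitochondrially encoded median 0.233 to 0.396), and 1 to 19 nuclear and 0 to 3 mitochondrially encoded between the lines (median -0.281 to -0.0903). The mitochondrially encoded median of the drug effect in overexpressing cells was 0.157 to 0.235. Same-numbered replicates are linked in the labels only by their number. Correlations of their deviations were -0.272 to 0.128, which cannot show whether they were prepared together. With the replicate block overexpression called 32 nuclear members and the interaction 23.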
